A study of Rattus norvegicus with 18 samples.

Results

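Akr1b7 and Akr1c12 are 2 genes of the aldo-keto reductase superfamily whose hepatic transcripts differed in opposite directions between vehicle pups and rat pups exposed to BDE-47 before and after birth. The array names 1 probe for Akr1b7 (NCBI gene 116463, probe ILMN_1354362) and 2 for Akr1c12 (NCBI gene 364773, probes ILMN_1358038 and ILMN_1373236), so they make up 3 of 22523 probes, and 2 of 13337 genes with a named probe. Both genes were chosen because their levels ran in opposite directions with exposure, pup by pup, across the 3 groups. The exposure differences and the opposition are therefore given as a description, with standard errors and no test. Timed pregnant Wistar rats, 3 dams per group, were injected in the tail vein every 5 days from gestational day (GD) 15 to postnatal day (PND) 20, 6 injections in all. Dams of G1 received the vehicle alone (ethanol, Cremophor EL and water), dams of G2 0.002 mg/kg body weight of BDE-47 (a tetrabrominated diphenyl ether from flame retardants) in that vehicle, and dams of G3 0.2 mg/kg. Whole livers were taken from 6 pups per group on PND 27, males being pups 1 to 3 and females pups 4 to 6 of each group, and each RNA was hybridized to 1 RatRef-12 BeadChip array. The methods state that 1 male and 1 female were taken per litter, but which pups shared a litter is not given, and p-values below treat 6 pups of 3 dams as separate and are too small if littermates are alike.

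Aldo-keto reductases are soluble enzymes that reduce aldehydes and ketones to alcohols with NADPH or NADH. The AKR1B branch holds aldose reductase and its relatives, which act on sugars and on aldehydes from lipid breakdown. In the mouse, Akr1b7 reduces isocaproaldehyde, the by-product of cholesterol side chain cleavage in the adrenal gland, and its liver and intestinal expression is known to respond to the nuclear receptors that sense bile acids, oxysterols and xenobiotics. The AKR1C branch holds hydroxysteroid dehydrogenases, which interconvert steroid ketones and alcohols, and mouse Akr1c12 is one of these.

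Akr1b7 was located on chromosome 4 in RefSeq's GRCr8 annotation, directly after Akr1b1, Akr1b8 and Akr1b10. Akr1c12 was located on chromosome 17 in a run of 11 genes of the superfamily, between Akr1c19 and Akr1c3. The 250 bases before the transcript starts of Akr1b7 and Akr1c12 are shown because these are the transcripts that ran in opposite directions, and those of Akr1c13 because it is the neighbour most like Akr1c12. The Akr1b7 window lies at chr4:64043720-64043969 on the plus strand, the Akr1c12 window at chr17:70971413-70971662 on the minus strand and the Akr1c13 window at chr17:70894386-70894635 on the plus strand (RefSeq, GRCr8), each read 5′ to 3′ towards the start. In Akr1b7 the capitals mark a nuclear receptor half-site, AGGTCA on the minus strand. In Akr1c13 they mark the bases that differ from Akr1c12 in an alignment or have none opposite.
Akr1b7: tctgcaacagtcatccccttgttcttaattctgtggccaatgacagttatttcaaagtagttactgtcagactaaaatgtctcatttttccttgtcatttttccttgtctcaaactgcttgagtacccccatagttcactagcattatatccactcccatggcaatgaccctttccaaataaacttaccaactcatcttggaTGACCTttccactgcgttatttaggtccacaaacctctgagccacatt
Akr1c12: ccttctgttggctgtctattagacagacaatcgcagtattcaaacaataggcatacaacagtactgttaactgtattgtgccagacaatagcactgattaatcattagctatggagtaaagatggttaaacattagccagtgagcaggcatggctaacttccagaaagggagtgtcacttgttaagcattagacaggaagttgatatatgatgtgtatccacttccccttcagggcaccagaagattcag
Akr1c13: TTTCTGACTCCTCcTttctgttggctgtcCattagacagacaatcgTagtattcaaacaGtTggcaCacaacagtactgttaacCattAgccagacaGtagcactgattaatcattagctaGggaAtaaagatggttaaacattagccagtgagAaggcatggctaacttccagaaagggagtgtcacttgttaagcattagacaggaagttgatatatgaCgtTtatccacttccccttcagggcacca

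The Akr1b7 window held 1 AGGTCA match, starting 48 bases before the transcript start, and the Akr1c12 and Akr1c13 windows held none. Elsewhere in the superfamily, the window of the neighbour Akr1b10 held 2 matches and that of Akr7a2 held 1. AGGTCA was searched on both strands and was found in 14.1% of the 33469 promoter windows of the RefSeq table. Neither TGACNNNGC, the core of the antioxidant response element (10.1% of windows), nor TATAAA, the TATA box (12.9%), was found in any of the 3 windows shown. The Akr1c12 window was 84.8% identical to that of Akr1c13 and 80.8% identical to that of Akr1c12l1, but 45.6% identical to that of Akr1b7. In the pair shown, 27 bases of Akr1c13 differed from Akr1c12 or had none opposite, and 13 bases of Akr1c12 had none opposite in Akr1c13.

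Akr1b7 was lower in the livers of exposed pups, with a log2 difference from G1 of -1.23 in G2 (standard error 0.44) and of -1.68 in G3 (standard error 0.45). In the vehicle group its log2 expression was 12.12, 12.46 and 12.43 in male pups 1 to 3 and 10.39, 11.79 and 12.88 in female pups 4 to 6. In G2 it was 10.04, 11.64 and 10.43 in the males and 11.75, 10.17 and 10.67 in the females. In G3 it was 10.13, 10.67 and 9.63 in the males and 11.00, 11.26 and 9.27 in the females. Female pup 4 of G1 lay among the exposed pups, so the groups overlapped in both comparisons, whereas the other 5 vehicle pups were above every exposed pup. The means were 12.01 ± 0.87 (SD, n = 6) in G1, 10.78 ± 0.74 (SD, n = 6) in G2 and 10.33 ± 0.78 (SD, n = 6) in G3. On the deposited log2 scale, the difference of G2 from G1 corresponds to 2.35-fold lower and that of G3 from G1 to 3.21-fold lower expression. The study itself reported larger decreases of Akr1b7 at both doses, on the array and by quantitative PCR. Of the 22523 probes, Akr1b7 had the lowest difference in G2 against G1 (rank 1) and the second lowest in G3 against G1 (rank 2). Between the 2 doses the difference was -0.45 (standard error 0.41), which is smaller than the spread between pups of either exposed group. Without female pup 4 of G1, the log2 differences from G1 were -1.56 in G2 (standard error 0.35) and -2.01 in G3 (standard error 0.36).

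**Figure D1:**
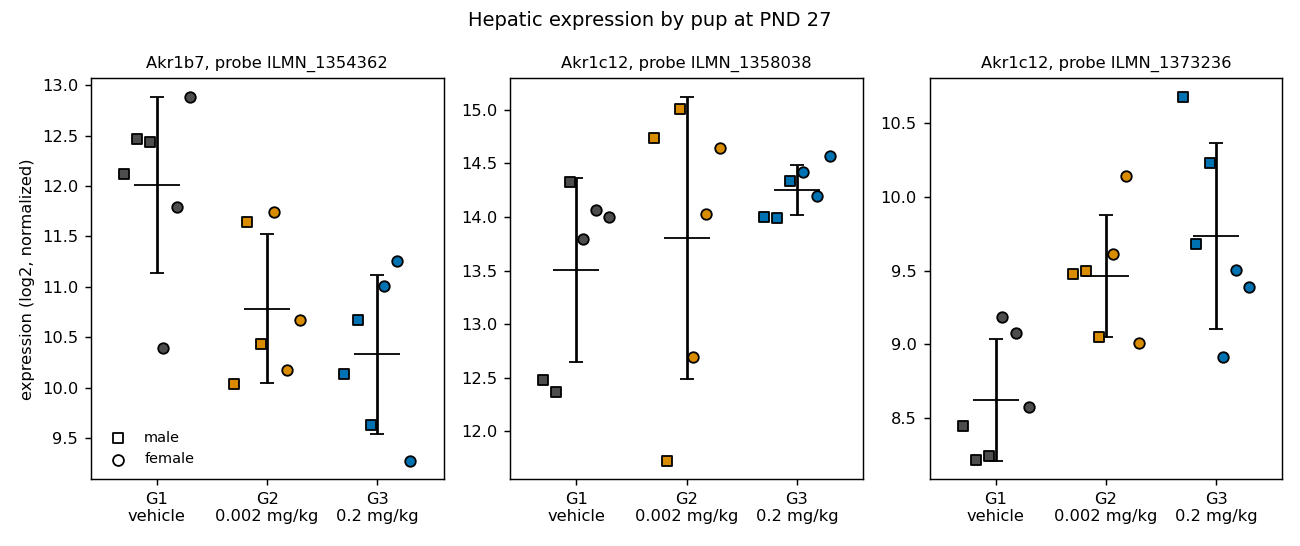
Normalized log2 expression of the probes of Akr1b7 and Akr1c12 (y axis, own scale per panel) in each of 18 pups by group (x axis: G1 vehicle, G2 0.002 mg/kg, G3 0.2 mg/kg), squares for males and circles for females, in pup order from left to right within a group. Horizontal bars and whiskers give the mean ± SD of 6 pups: Akr1b7 steps down from 12.01 to 10.78 and 10.33, probe ILMN_1373236 of Akr1c12 steps up from 8.62 to 9.46 and 9.73, and probe ILMN_1358038 is split by 4 pups at or below 12.70.

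The mean of Akr1c12 was higher in both exposed groups on both of its probes, but on probe ILMN_1358038 the G2 difference did not exceed its standard error. Probe ILMN_1373236 read 8.45, 8.21 and 8.24 in the males of G1 and 9.18, 9.08 and 8.57 in the females. In G2 it read 9.48, 9.50 and 9.05 in the males and 9.61, 10.14 and 9.01 in the females. In G3 it read 10.68, 9.68 and 10.23 in the males and 8.91, 9.51 and 9.39 in the females. Every exposed male was above every vehicle male, while among the females the highest vehicle pup, at 9.18, lay above the lowest pups of both exposed groups. The means were 8.62 ± 0.42 (SD, n = 6) in G1, 9.46 ± 0.41 (SD, n = 6) in G2 and 9.73 ± 0.63 (SD, n = 6) in G3. The log2 difference from G1 was 0.84 in G2 (standard error 0.22, rank 21 from the highest of all probes) and 1.11 in G3 (standard error 0.29, rank 11). On the deposited log2 scale these are 1.79-fold and 2.16-fold higher expression. The difference between the 2 doses, 0.27 (standard error 0.29), was within the spread of either group.

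Probe ILMN_1358038 of Akr1c12 read 12.48, 12.37 and 14.32 in the males of G1 and 13.79, 14.07 and 14.00 in the females. In G2 it read 14.74, 11.72 and 15.01 in the males and 12.70, 14.03 and 14.64 in the females. In G3 it read 14.00, 13.99 and 14.34 in the males and 14.42, 14.20 and 14.56 in the females. Male pups 1 and 2 of G1, male pup 2 of G2 and female pup 4 of G2 stood below the other 14 pups, which lay between 13.79 and 15.01, and no pup of G3 was among the low ones. The means were 13.51 ± 0.85 (SD, n = 6) in G1, 13.81 ± 1.31 (SD, n = 6) in G2 and 14.25 ± 0.23 (SD, n = 6) in G3. The log2 difference from G1 was 0.30 in G2 (standard error 0.60) and 0.74 in G3 (standard error 0.34), and that of G3 from G2 was 0.44 (standard error 0.51). The groups overlapped in each of these comparisons, and the G2 value is smaller than its standard error. All vehicle females lay below all G3 females on this probe, the highest of the former at 14.07 and the lowest of the latter at 14.20, as for 5.95% of all probes on the higher side.

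All 3 probes varied more between pups of 1 group than most probes of the array. The median SD of all probes was 0.04 in G1, and 0.14% of probes had a larger SD there than Akr1b7 and 0.17% a larger one than probe ILMN_1358038. In G2, 0.04% of probes had a larger SD than probe ILMN_1358038 (rank 10 of 22523), whereas in G3 3.94% did. Most probes of the array lie close to background and so have little spread, 73.6% of them within 0.5 of the median probe on the log2 scale.

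Pup by pup, Akr1b7 and Akr1c12 ran in opposite directions, as the choice of the pair fixes. Over the 18 pups the Pearson r of Akr1b7 was -0.70 with probe ILMN_1373236 (Spearman -0.64) and -0.53 with probe ILMN_1358038 (Spearman -0.50). These are descriptions without a test, over pups that share dams and arrays that were normalized together. Leaving out the 2 pups farthest from the median of Akr1b7 gave -0.61 and -0.53. With the group means removed, r was -0.40 with probe ILMN_1373236 and -0.46 with probe ILMN_1358038. The pair was chosen on these same pups, so no conclusion is drawn from these values. Other genes of the superfamily also ran opposite to Akr1b7, with an r of -0.65 for Akr1c15, -0.63 for Akr1d1 and -0.47 for Akr1c3 (-0.64, -0.33 and -0.37 with the group means removed). Of these, Akr1c15 lay near the median probe, between 7.85 and 8.05. Not all did so: r was 0.51 for Akr1c14 (0.74 with the group means removed), 0.23 for Akr1c2 and -0.08 for Akr1c13. Within G1, r was -0.78 with probe ILMN_1373236 and -0.12 with probe ILMN_1358038. Within G2 the values were -0.03 and -0.87 and within G3 -0.38 and -0.41, each over 6 pups, and the difference between groups was not tested. The 2 probes of Akr1c12 did not follow each other: their r was 0.17 over 18 pups (Spearman -0.02) and -0.09 with the group means removed. On opposite sides of their medians over 18 pups lay Akr1b7 and probe ILMN_1373236 in 12 pups, and Akr1b7 and probe ILMN_1358038 in 10 pups.

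**Figure D2:**
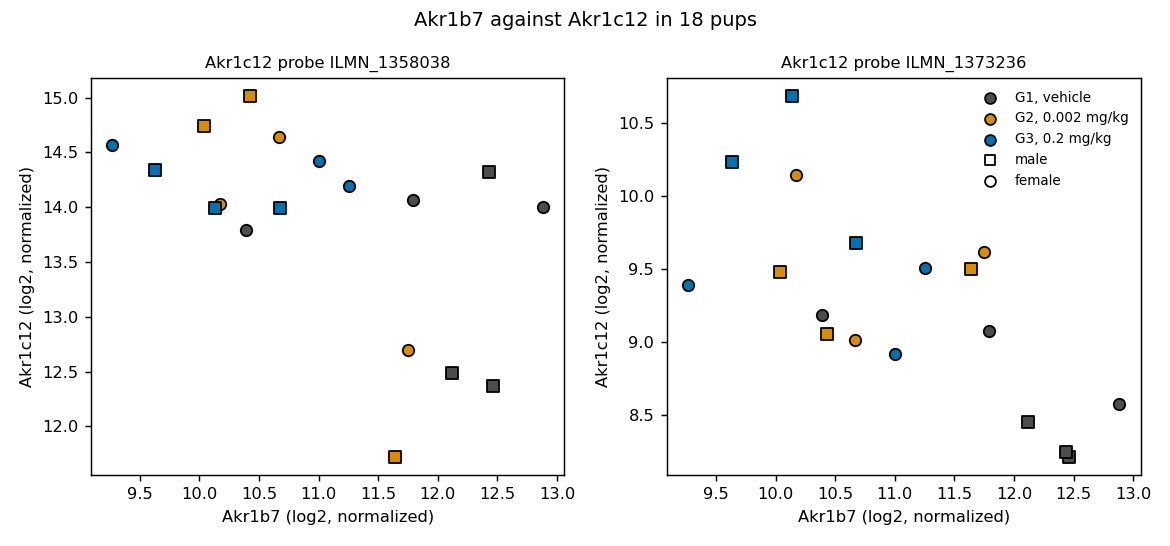
Normalized log2 expression of Akr1b7 (x axis) against each probe of Akr1c12 (y axis) in 18 pups, coloured by group, squares for males and circles for females. On the left, the 4 low pups of probe ILMN_1358038 have Akr1b7 between 11.64 and 12.46, and r is -0.53, and on the right the vehicle males sit at the lower right, and r is -0.70.

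Sex was not used to choose the genes and could be tested. Neither gene differed detectably between the 9 females and the 9 males with the exposure groups in the fit. Akr1b7 was -0.04 in females minus males (standard error 0.37, adjusted p = 0.994 from limma, exact permutation p = 0.915). Probe ILMN_1358038 was 0.38 (standard error 0.41, adjusted p = 0.926 from limma, exact permutation p = 0.412) and probe ILMN_1373236 was -0.01 (standard error 0.23, adjusted p = 0.996 from limma, exact permutation p = 0.959). The permutation test was two-sided over the 8000 arrangements of sex within groups, of which the smallest p is 0.00025, and adjusted over the 3 probes each p was 0.959. Over all probes, 1 of 22523 passed an adjusted p of 0.05 for sex (0.00444%).

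The differences from G1 were larger in males than in females on each probe. For Akr1b7 the log2 difference from G1 was -1.64 in G2 males (standard error 0.43) and -2.19 in G3 males (standard error 0.28), against -0.83 (standard error 0.74) and -1.18 (standard error 0.82) in females. The male groups did not overlap in either comparison, which held for 6.42% of all probes on the lower side in G2 and 10% in G3. For probe ILMN_1373236 the males gave 1.04 (standard error 0.14) and 1.89 (standard error 0.26) and the females 0.64 (standard error 0.33) and 0.32 (standard error 0.22). Its male groups also did not overlap, as for 5.89% of all probes on the higher side in G2 and 9.01% in G3. For probe ILMN_1358038 the males gave 0.77 (standard error 1.07) and 1.05 (standard error 0.56) and the females -0.16 (standard error 0.50) and 0.44 (standard error 0.12). Tested over all probes, no sex by exposure interaction passed the adjustment for these probes. The interaction of probe ILMN_1373236 in G3 was -1.57 (standard error 0.41), its unadjusted p from limma over all 18 arrays was 0.00209, and its adjusted p was 1.00. An unadjusted p under 0.05 was reached by 4.16% of all probes in that interaction and an adjusted one by 0.00444%. The interactions of Akr1b7 were 0.81 in G2 and 1.01 in G3 (standard error 0.93 each, adjusted p = 1.00 from limma for both). Leaving out 1 pup moved them between 0.16 and 1.41 in G2 and between 0.36 and 1.63 in G3. Both were lowest without female pup 4 of G1, so the larger Akr1b7 difference in males rests in part on that pup.

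The neighbours of Akr1c12 in the chromosome 17 cluster were set beside it pup by pup. Akr1c13, a hydroxysteroid dehydrogenase of the same cluster, read 9.89, 9.82, 9.61, 9.45, 9.75 and 11.14 in pups 1 to 6 of G1. It read 9.59, 11.17, 9.71, 9.65, 11.71 and 9.70 in G2 and 11.17, 9.77, 11.08, 9.71, 9.81 and 9.73 in G3. The pups thus fell into 5 at 11.08 to 11.71 and 13 at 9.45 to 9.89, with high pups in every group and in both sexes. The 5 highest pups of Akr1c12l1 (probe ILMN_1372695), at 9.20 to 9.98 against 8.31 to 8.82 in the other 13, were the same 5, and the r of the pair was 0.97 over 18 pups. Of the 5 highest pups of probe ILMN_1373236 of Akr1c12, 3 were among them, and its r with Akr1c13 was 0.51 (0.56 with the group means removed). It also followed 3 other genes of the cluster, with an r of 0.62 for Akr1c15, 0.58 for Akr1c19 and 0.55 for Akr1c3 (0.61, 0.50 and 0.50 with the group means removed). Of these, Akr1c15 lay near the median probe, between 7.85 and 8.05. Outside the cluster, probe ILMN_1373236 had a higher r with Akr1d1, 0.66 (0.39 with the group means removed). Probe ILMN_1358038 had an r of -0.19 with Akr1c13, 0.40 with Akr1c15, 0.05 with Akr1c19 and -0.30 with Akr1c3. In the exposure comparisons Akr1c13 was 0.31 higher in G2 (standard error 0.43, adjusted p = 0.842 from limma) and 0.27 higher in G3 (standard error 0.36, adjusted p = 0.742). The probe sequences were not used here, so how far each probe also binds the transcripts of near-identical neighbours was not tested.

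**Figure D3:**
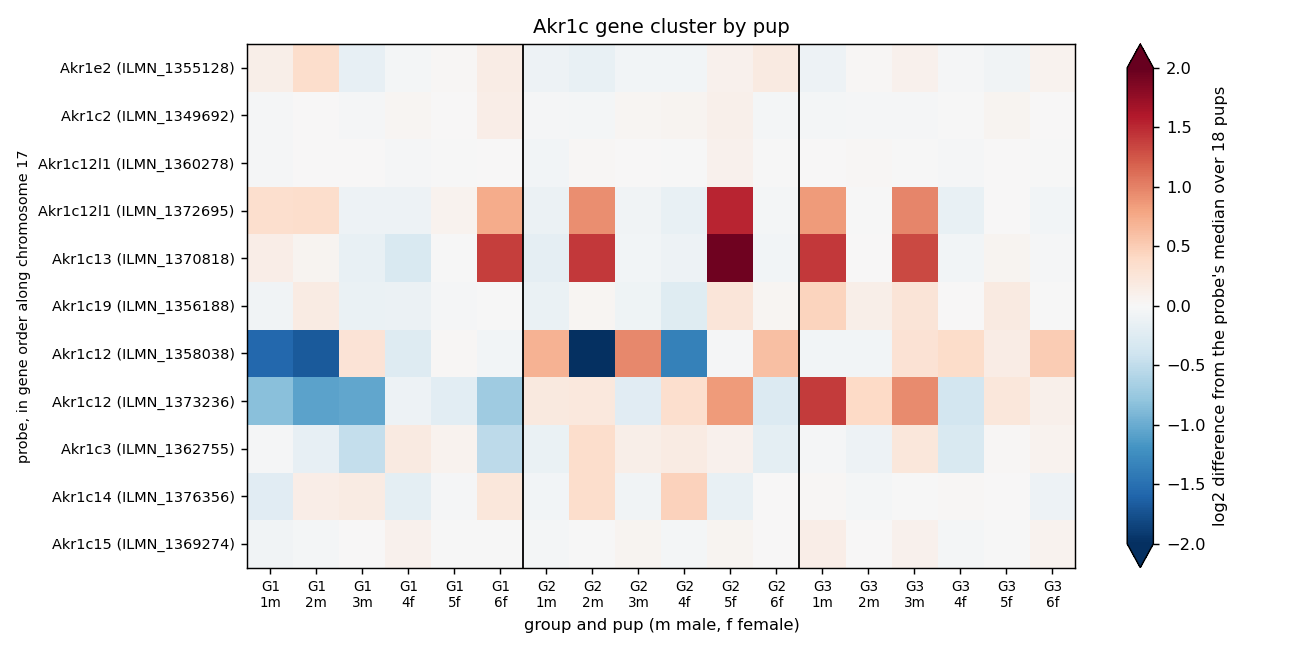
Log2 difference of each probe from its own median over 18 pups (colour, limits at -2 and 2) for the superfamily genes of the chromosome 17 cluster in gene order (rows) and the pups of G1, G2 and G3 (columns, m male and f female). Akr1c13 and Akr1c12l1 (ILMN_1372695) are red in the same 5 pups, probe ILMN_1358038 of Akr1c12 is blue in pups 1 and 2 of G1 and pups 2 and 4 of G2, and Akr1e2, Akr1c2, Akr1c14 and Akr1c15 are pale throughout.

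Of the other superfamily genes, 18 had a probe and none passed an adjusted p of 0.05 with a 2-fold change in any comparison. Over all probes, 2 were called in G2 (0.00888%), 1 in G3 (0.00444%) and none between the doses. At an unadjusted p under 0.05, 1 of the 18 was lower in G2 (5.56%, against 5.59% of all probes) and none was higher (4.4% of all probes). In G3, 3 of the 18 were higher (16.7%, against 8.59% of all probes) and none was lower (9.98% of all probes). With dim probes left out, 680 of 11262 probes were higher and 860 lower in G2, and 1487 and 1586 in G3. These shares are larger than those over all probes, which stand beside this list and those below. The median log2 difference of the 18 was 0.01 in G2 and 0.02 in G3, where that of all probes was 0.00 in both. The 18 differences from G1 lay between -0.09 and 0.47 in G2 and between -0.08 and 0.74 in G3.

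Akr1d1, the steroid 5β-reductase of bile acid synthesis, was the highest of the 18. It read 11.42 to 13.14 in G1 (mean 12.37 ± 0.57, SD, n = 6) and 12.53 to 13.55 in G3 (mean 13.11 ± 0.36, SD, n = 6). Its G3 difference was 0.74 (standard error 0.26, adjusted p = 0.161 from limma), its G2 difference was 0.47 (standard error 0.23, adjusted p = 0.514), and the groups overlapped. Akr7a2, which reduces succinic semialdehyde, was 0.33 higher in G3 (standard error 0.11, adjusted p = 0.155 from limma), and Akr1c19 was 0.20 higher (standard error 0.08, adjusted p = 0.202). Akr7a3, the aflatoxin aldehyde reductase, was 0.28 higher in G2 (standard error 0.18, adjusted p = 0.611 from limma) and 0.10 higher in G3 (standard error 0.18, adjusted p = 0.814). Akr1c14, the major hepatic 3α-hydroxysteroid dehydrogenase of the rat, differed from G1 by 0.08 in G2 and by -0.03 in G3 (adjusted p = 0.860 and 0.890 from limma).

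Within the Akr1b run of chromosome 4, Akr1b7 was the only gene with a difference of over 1 on the log2 scale. Akr1b1, aldose reductase, had means of 10.03, 9.96 and 10.04 in G1, G2 and G3, with differences of -0.08 and 0.01 from G1 (adjusted p = 0.848 and 0.981 from limma). Akr1b8 and Akr1b10 lay at the level of the median probe, 7.84, between 7.76 and 7.86 in every pup, so a change in them was not measurable here. Akr1c2, probe ILMN_1360278 of Akr1c12l1 and Kcnab2 and Kcnab3, which encode β subunits of potassium channels, also lay close to the median probe, between 7.68 and 7.96 in every pup, with the same limit. Kcnab1, another such subunit at 7.81 to 7.93, equally close to the median probe, was the 1 gene lower at an unadjusted p in G2, with a difference of -0.04 (standard error 0.02, adjusted p = 0.495 from limma). Akr1a1, the aldehyde reductase that also serves ascorbate synthesis, and Akr1e2 differed from G1 by at most 0.09 in either group.

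**Figure D4:**
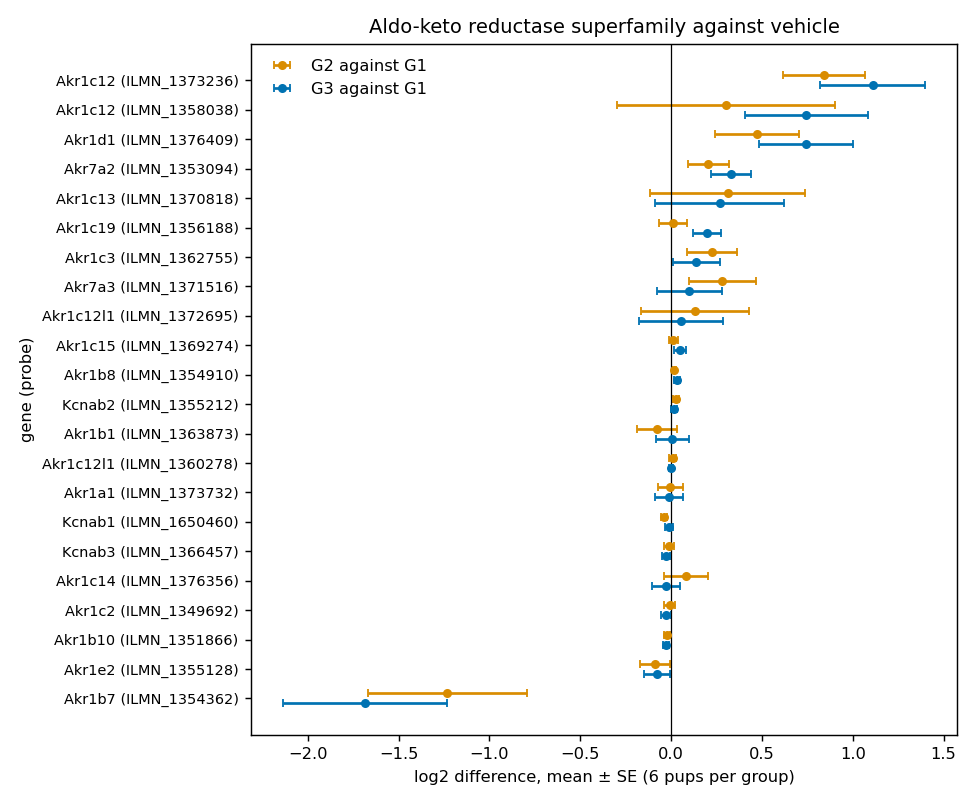
Log2 difference from the vehicle group (x axis, mean ± standard error, 6 pups per group) of each probe of the aldo-keto reductase superfamily (y axis), for G2 and for G3. Akr1b7 stands alone on the lower side at -1.23 and -1.68 and probe ILMN_1373236 of Akr1c12 is at the top at 0.84 and 1.11, while the 18 other genes lie between -0.09 and 0.74.

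Other hepatic enzymes that clear lipid aldehydes were described for comparison. This list and those that follow were chosen with earlier results of these data known, so their shares are descriptions. Of 14 measured, none passed the adjusted p in either exposed group. At an unadjusted p under 0.05, 5 were higher (35.7%, against 4.4% of all probes) and 2 lower (14.3%, against 5.59%) in G2. In G3, 4 were higher (28.6%, against 8.59% of all probes) and 1 was lower (7.14%, against 9.98%). Aldh9a1, an aldehyde dehydrogenase of carnitine synthesis, was 0.76 higher in G2 (standard error 0.31, adjusted p = 0.487 from limma) and 0.93 higher in G3 (standard error 0.28, adjusted p = 0.121). Aldh1a1, a retinal dehydrogenase, was 0.41 higher in G3 (standard error 0.13, adjusted p = 0.129 from limma). The prostaglandin reductases ran apart: Ptgr2 was 0.30 higher in G3 (standard error 0.07, adjusted p = 0.0826 from limma) and Ptgr1 was -0.39 in G2 against G1 (standard error 0.12, adjusted p = 0.450 from limma). Aldh1b1, a mitochondrial aldehyde dehydrogenase, was -0.36 in G2 against G1 (standard error 0.11, adjusted p = 0.444 from limma).

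Of 16 steroid-converting enzymes of other families, none passed. At the unadjusted p, 2 were higher (12.5%, against 4.4% of all probes) and 1 lower (6.25%, against 5.59%) in G2. In G3, 5 were higher (31.2%, against 8.59% of all probes) and 2 lower (12.5%, against 9.98%). Hsd11b1, which regenerates active glucocorticoid, was 0.25 higher in G3 (standard error 0.05, adjusted p = 0.0584 from limma) and differed from G1 by -0.0022 in G2 (standard error 0.05). Hsd17b4, an enzyme of peroxisomal β-oxidation, was 0.19 higher in G3 (standard error 0.04, adjusted p = 0.0584 from limma). Hsd17b10, a mitochondrial hydroxysteroid dehydrogenase that also acts in isoleucine breakdown, was 0.37 higher in G3 (standard error 0.09, adjusted p = 0.0771 from limma) and 0.25 higher in G2 (adjusted p = 0.437). Hsd17b12, which elongates fatty acids, was -0.31 in G2 against G1 (standard error 0.13, adjusted p = 0.486 from limma).

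The receptors known from the mouse to act on Akr1b7, and their target genes, were measured on the same arrays. Of 11 receptors and partners measured, none passed the adjusted p. At the unadjusted p, 2 were higher in G2 (18.2%, against 4.4% of all probes) and none lower (5.59% of all probes), while in G3 2 were higher (18.2%, against 8.59%) and 2 lower (18.2%, against 9.98%). Nr1h3 (LXRα) was -0.29 in G3 against G1 (standard error 0.11, adjusted p = 0.180 from limma) and Nr1i2 (PXR) was -0.13 (standard error 0.05, adjusted p = 0.172 from limma). Nfe2l2 (Nrf2) was 0.41 higher in G3 (standard error 0.16, adjusted p = 0.201 from limma), and Nr5a2 (LRH-1) was 0.30 higher in G2 (standard error 0.09, adjusted p = 0.450 from limma).

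Of 11 targets of FXR, the bile acid receptor, 2 were higher in G2 (18.2%, against 4.4% of all probes) and 3 in G3 (27.3%, against 8.59%) at the unadjusted p. None was lower, where 5.59% and 9.98% of all probes were, and none passed. Abcb4, the phospholipid exporter of the bile canaliculus, was 0.61 higher in G2 (standard error 0.09, adjusted p = 0.0975 from limma) and 0.50 higher in G3 (standard error 0.14, adjusted p = 0.109 from limma), opposite in sign to Akr1b7. Baat, which joins bile acids to amino acids, and Slc10a1, the bile acid importer NTCP, exceeded G1 by 0.31 and 0.18 in G3, where limma gave an adjusted p of 0.201 and 0.211, and Fgfr4, a receptor of bile acid feedback, was 0.33 higher in G2 (adjusted p = 0.468). Of 12 LXR targets, none passed. At the unadjusted p, 2 were higher (16.7%, against 4.4% of all probes) and none lower (5.59% of all probes) in G2, and 3 were higher (25.0%, against 8.59%) and 2 lower (16.7%, against 9.98%) in G3. Smpdl3a, a phosphodiesterase, was 0.53 higher in G3 (standard error 0.09, adjusted p = 0.0584 from limma). Abca1, the cholesterol exporter, and Lpcat3, which remodels phospholipids, were 0.30 and 0.35 higher in G2 (adjusted p = 0.488 and 0.495 from limma). Mylip, the ligase that degrades the LDL receptor, was 0.05 higher in G3 (adjusted p = 0.0832 from limma) with group means of 7.70 to 7.75, below the median probe.

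Of 15 CAR and PXR targets, 1 passed in G3. At the unadjusted p, 5 were higher (33.3%, against 4.4% of all probes) and 1 lower (6.67%, against 5.59%) in G2, and 4 were higher (26.7%, against 8.59%) and 1 lower (6.67%, against 9.98%) in G3. Por, the flavoprotein that passes electrons to microsomal cytochromes P450, fell by 1.15 on the log2 scale in G3 (standard error 0.17, adjusted p = 0.0461 from limma) and was -0.42 in G2 (standard error 0.17, adjusted p = 0.486). The call held in 3 of the 12 fits that each left out 1 pup (without pups 3 or 6 of G1 or pup 6 of G3), over which the difference ran from -1.28 to -1.07 and the adjusted p from limma from 0.00933 to 0.113. It held in 5 of 9 other settings and was lost with sex as a covariate (adjusted p = 0.0510), with replicate number as a block (0.146), in males only (0.272) and in females only (0.508). Ugt1a1, the bilirubin glucuronosyltransferase, was 0.90 higher in G2 (standard error 0.35, adjusted p = 0.486 from limma) and 1.18 higher in G3 (standard error 0.34, adjusted p = 0.115). The cytochrome P450 gene Cyp2c7 was 0.97 higher in G2 (standard error 0.22, adjusted p = 0.412 from limma) and -0.18 in G3 against G1 (standard error 0.30). Gsta2, a glutathione transferase and a target of Nrf2 as well, was 0.97 higher in G2 (standard error 0.26, adjusted p = 0.435 from limma) and 1.07 higher in G3 (standard error 0.21, adjusted p = 0.0584). Of 22 Nrf2 targets, 5 were higher in G2 (22.7%, against 4.4% of all probes) and 3 in G3 (13.6%, against 8.59%) at the unadjusted p. None was lower, where 5.59% and 9.98% of all probes were, and none passed. Gsr, glutathione reductase, and Gclc, the catalytic subunit of glutathione synthesis, exceeded the vehicle group by 0.49 and 0.71 in G3, and limma gave an adjusted p of 0.115 and 0.153. The exposed groups share the G1 pups as controls, so these counts are not independent of each other.

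Among 4634 genes with a mean at least 0.5 above the median probe, the genes most like each member over the 18 pups were looked up. They were selected on the pattern itself and carry no test. Akr1b7 was followed most closely by Sds (r = 0.80), the serine dehydratase that feeds amino acid carbon into gluconeogenesis. Sds had means of 10.50 ± 0.82 (SD, n = 6) in G1, 9.71 ± 0.52 in G2 and 9.44 ± 0.81 in G3, stepping down with Akr1b7. Next came Tent4a (0.78), Ogt (0.77), the transferase of O-GlcNAc, Pdhx (0.75), a subunit of the pyruvate dehydrogenase complex, and S100g (0.75). At the opposite end lay Decr1 (r = -0.75), the mitochondrial dienoyl-CoA reductase of unsaturated fatty acid oxidation, followed by Plekhb1 (-0.74), Paics (-0.71), Cesl1 (-0.70) and Il10rb (-0.70). Decr1 had means of 12.95, 13.20 and 13.41 in G1, G2 and G3. With the group means removed, the highest values were for Bhmt (0.81), betaine-homocysteine methyltransferase, Zbtb7b (0.74) and Akr1c14 (0.74), a member of the same superfamily, and the lowest for Faf1 (-0.75), Clpb (-0.74) and Ribc1 (-0.70).

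The 2 probes of Akr1c12 had different companions. Probe ILMN_1358038 was followed by Snw1 (r = 0.93), a splicing and transcription cofactor, Tapbpl (0.91), an editor of MHC class I peptides, and Acox2 (0.88), the peroxisomal oxidase of bile acid intermediates. Ddx6 (0.87) and Setd5 (0.86) came next. The 4 pups lowest on probe ILMN_1358038 were also the 4 lowest for Snw1, Tapbpl and Acox2. Snw1 read 8.52 to 8.81 in them and 9.34 to 9.99 in the other 14 pups, and Acox2 read 10.29 to 10.71 against 11.11 to 11.49. For Tapbpl the 4 pups ended at 8.77 and the other 14 began at 8.82. At the opposite end lay Tas2r7l (-0.84), Clcc1 (-0.84), Zfr (-0.80), Slc30a2 (-0.80) and Ctla4 (-0.79). Removing the group means left Snw1 (0.93), Tapbpl (0.91) and Setd5 (0.90) at the top and Tas2r7l (-0.87), Clcc1 (-0.84) and Slc30a2 (-0.81) at the bottom.

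Probe ILMN_1373236 was followed by Crot (r = 0.81), the peroxisomal carnitine octanoyltransferase, whose means were 11.47 ± 0.24 (SD, n = 6) in G1, 12.46 ± 0.16 in G2 and 12.37 ± 0.29 in G3. Igfbp2 (0.78), Ak4 (0.77), Fabp7 (0.77) and Ei24 (0.77) came next. At the opposite end lay Pdhx (-0.82), which was also among the genes that followed Akr1b7, then Prpf38b (-0.81), Acly (-0.77), the ATP citrate lyase that supplies acetyl-CoA for lipid synthesis, Tuba1a (-0.77) and Slc2a5 (-0.77), the fructose transporter. Acly had means of 12.83, 12.42 and 11.83 in G1, G2 and G3. With the group means removed, Marf1 (0.75), Ints11 (0.70) and Egf (0.69) were highest and Slc35b1 (-0.77), Pqbp1 (-0.72) and Gpam (-0.72) lowest.

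The labelled tissue was checked by its markers. Of 9 hepatocyte markers measured, 8 lay at least 0.5 above the median probe, and their mean level ranged from 13.85 to 14.21 in G1, 14.03 to 14.16 in G2 and 13.89 to 14.19 in G3. Of 9 adrenal cortex markers, a tissue in which mouse Akr1b7 is abundant, 2 did so (Cyp17a1 and Fdx1), while Cyp11a1 and Cyp11b1 lay at the median probe, and the mean level ranged from 8.84 to 8.92 in G1, 8.83 to 8.93 in G2 and 8.87 to 8.97 in G3. The 7 erythroid markers were all lower in G2 than in G1, 5 of them at an unadjusted p under 0.05 (as were 5.59% of all probes), with mean levels of 10.35 to 10.79 in G2 and 10.65 to 11.22 in G1, and their part in the G2 values was not tested. The mean level of skeletal muscle markers lay between 7.78 and 7.80 in all G1 and G2 pups, and the median of the G3 pups was 7.82. Male pup 2 of G3 carried skeletal muscle transcripts, with a mean marker level of 10.53. Without that pup the log2 differences of G3 from G1 were -1.75 for Akr1b7 (standard error 0.49), 0.80 for probe ILMN_1358038 (standard error 0.37) and 1.12 for probe ILMN_1373236 (standard error 0.32), and 3 superfamily genes again reached the unadjusted p. In whole liver, fewer cells of a type and less RNA per cell cannot be told apart.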

How the data were processed

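Liver RNA of 18 Wistar pups was measured on Illumina RatRef-12 arrays, 1 per pup, 6 per group. The deposited values are log2 expression, which the authors obtained with lumi inside FlexArray. How lumi normalized them, and its version, was not given in the sources used. The array medians lay between 7.84 and 7.85, with no centring on genes. The number of arrays limits the precision, as does signal over background for dim probes. Probes were named from the platform annotation, which gives 1 gene symbol for 13793 probes, several or none for 8730. Names were updated by gene ID from RefSeq (GRCr8). RefSeq's synonyms of Akr1c12 and Akr1c13 cross, and the gene IDs were followed. RefSeq promoter windows matched both members.

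Differences were tested with limma 3.58.1 in R 4.3.3 (moderated two-sided test of eBayes, Benjamini-Hochberg over 22523 probes) on the 12 arrays of each pair of groups, sexes pooled, where the methods used a Bayesian test of pairs. A probe was called where its adjusted p did not exceed 0.05 and its change reached 2-fold on the deposited log2 scale. Sex and sex by exposure were fitted over 18 arrays. The fits were tested on simulated data. Promoters were aligned with Biopython 1.88 in Python 3.11.15. The brightest probe stood for a gene, apart from the members. Where genes were named from a list, those of smallest p were taken, up to 3 in G3 and 2 in G2, and for likeness the 5 highest and 5 lowest. The members and gene lists were chosen with earlier results of these data known. Alternatives were other normalizations, pups left out, sex or replicate number in the fit, 1 sex, and other filters.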

Additional observations from a re-analysis of the deposited data

Results flagged for a closer look

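Each group of 6 pups was examined for a pup set apart from the rest by a gap of over 0.625 of the group's range, over 22 superfamily probes and 3 groups. Of these 66 groups, 2 held such a pup, and chance alone gives about 1 in 20. Akr1c13 in female pup 6 of G1 was 11.14, the highest of its group, where the other 5 pups lay between 9.45 and 9.89. Kcnab3 in male pup 2 of G1 was 7.96, where the others lay between 7.80 and 7.85, all near the median probe. None of the 9 groups of the 3 member probes held such a pup.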

How the results depend on the processing

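The differences of the member probes, on which the genes were chosen, kept their sign in 169 of 171 values under other settings. Some of these values could not change sign. In this balanced design, sex or replicate number in the fit, or all 3 groups together, leaves a difference as it is. The exceptions were the females alone for probe ILMN_1358038 in G2 against G1 (-0.16) and for probe ILMN_1373236 in G3 against G2 (-0.32). Leaving out 1 pup moved the Akr1b7 difference between -1.56 and -1.06 in G2 and between -2.01 and -1.47 in G3, that of probe ILMN_1373236 between 0.71 and 0.95 and between 0.92 and 1.27, and that of probe ILMN_1358038 between 0.06 and 0.72 and between 0.52 and 0.91. The near-zero sex differences changed sign when pups were left out, between -0.18 and 0.19 for Akr1b7 and between -0.11 and 0.12 for probe ILMN_1373236, and none of 198 sex and interaction values passed the adjusted p (smallest 0.534).

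The counts of calls over all probes were unstable, and the cause was not tested. In G2 the 2 calls became 0 with quantile normalization, the replicate block or all 3 groups together, 1 with sex as a covariate, and 0 to 3 without 1 pup. In G3 the 1 call became 0 with the replicate block, 10 with dim probes left out, 13 with the trended variance prior, 17 with all 3 groups together, 18 with no fold limit, and 0 to 38 without 1 pup, the 38 without pup 6 of G1. Between the doses 4 probes passed with no fold limit. None of the other superfamily genes passed in any setting, and the members were left out of this count. At the unadjusted p, the 1 gene in G2 became 0 (dim probes left out, or all 3 groups together) or 2 (replicate block, or males only), and 0 to 4 without 1 pup. The 3 genes in G3 became 0 in females only and 2 to 4 without 1 pup. The 0 between the doses became 1 (variance prior, or all 3 groups together) or 2 (males only), and 0 to 2 without 1 pup.

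The r of Akr1b7 with probe ILMN_1358038 was -0.64 in males only and -0.40 in females only, both chosen after seeing the data, and -0.61 to -0.46 without 1 pup. That with probe ILMN_1373236 was -0.85, -0.50 and -0.76 to -0.66, and -0.64 by Spearman. With the group means removed they were -0.46 and -0.40. Within G1, G2 and G3 the former was -0.12, -0.87 and -0.41 and the latter -0.78, -0.034 and -0.38. Replicate numbers do not pair the pups: same-numbered pups of different groups correlated between -0.33 and 0.22, with 2 of 18 pairs over 0.1. The replicate block left the member differences as they were. Signal over background limits the genes at the median probe.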
